A study of Homo sapiens with 4 samples.

Results

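The genes of the core subunits of condensin and cohesin, the ring-shaped protein complexes that fold and hold chromosomes, were followed in A549 cells after transfection of either strand of pre-*miR-486*. A549 is an established human lung adenocarcinoma (LUAD) cell line. The members were taken by gene symbol and were 10 of the 22439 genes with a named probe: *SMC2* and *SMC4*, shared by both condensins, *NCAPD2*, *NCAPG* and *NCAPH* of condensin I, *NCAPD3*, *NCAPG2* and *NCAPH2* of condensin II, and *SMC1A* and *SMC3*, the SMC pair of cohesin. Total RNA of 4 cell samples was measured on 4 one-color Agilent arrays. One sample received *miR-486-5p*, the guide strand, and another received *miR-486-3p*, the passenger strand, each with the Lipofectamine RNAiMAX reagent. The remaining 2 samples, called mock here, received the reagent without an RNA. The arrays of the first pair of samples are called the 5p array and the 3p array. A control RNA of unrelated sequence was not among these samples, so what any small RNA would do and what the miRNA did cannot be told apart. Each strand rests on 1 array, and the labels do not say whether the 2 mock samples came from separate cultures, so the *p*-values below measure the spread between those 2 arrays, which may be technical.

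Condensin and cohesin belong to the SMC family. In each complex, a pair of long SMC ATPases joins at a hinge, and a kleisin subunit bridges the ATPase heads to close a ring around DNA. In condensin, HEAT-repeat subunits dock on the kleisin. Condensin I meets the chromosomes after the nuclear envelope breaks down, whereas condensin II is in the nucleus throughout the cell cycle, and together they compact the chromosomes of mitosis. Cohesin holds sister chromatids together from S phase to anaphase and extrudes chromatin loops in interphase, also in cells that are not dividing.

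A probe's level is given below as its log2 signal, the log2 of the scanner's processed signal minus the 75th percentile of its array. The 10 genes had 17 probes, of which 17 were well above background on each of the 4 arrays. More than 1 probe was present for 5 genes. Over these probes, the 2 mock arrays differed by 0.000848 to 0.201 on the log2 scale, and their difference had an SD of 0.196 over 28246 probes that were well above background throughout. Between 30690 and 31516 of 58201 probes were well above background on an array. Of the epithelial markers, *KRT8*, *KRT18* and *KRT7* were well above background on every array, while *CDH1* was so on none and *EPCAM* not on all. Of 3 aldo-keto reductase genes chosen as high in A549, 2 had a probe. *AKR1C1* was well above background on every array but dim, at −2.40 and −2.28 in mock, and the other was not so on every array. Of 10 markers of leukocytes, fibroblasts and endothelium, *COL3A1*, *LUM* and *PECAM1* were well above background on no array. Among the rest, *CD14* differed from mock by 2.22 (log2) after *miR-486-3p*, and the part of these cell types in the results below was not tested.

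In cells given *miR-486-3p*, 6 of the 8 condensin genes had a signal 2.96-fold to 8.42-fold lower than in mock cells, and the 2 cohesin SMC genes did not pass the test. These 6 were *NCAPG*, *SMC4*, *NCAPD3*, *NCAPG2*, *SMC2* and *NCAPD2*. The same 6 genes had lower values after *miR-486-5p*, by 1.46-fold to 2.21-fold, but there the test called only *NCAPG* and *NCAPG2*. The log2 difference of a probe is its log2 signal on the transfected array less its average in mock, probes of a gene were averaged, and −0.5 was set as a descriptive limit. Below this limit lay 6 of 10 members after *miR-486-5p*, against 15.9% of the 16024 genes measured, and 6 of 10 after *miR-486-3p*, against 27.2% of 16446. The test was limma with Benjamini-Hochberg adjustment over 33498 probes, at 0.05, and a gene was called if at least 1 of its probes was. It called 2 members lower after *miR-486-5p*, where 6.66% of 16662 tested genes were called lower, and 0 members higher, where 3.58% were (1 member at an unadjusted *p*). After *miR-486-3p*, it called 7 members lower against 31.6% of genes, and 1 member, *NCAPH2*, had a probe called higher, against 31.9%. RNA of whole cultures was measured, so fewer cells in a phase of the cell cycle and less RNA per cell cannot be told apart. The calls after *miR-486-5p* lay close to the threshold. limma called none of the 10 genes with the authors' deposited log2 values (6 at an unadjusted *p*) or without a filter on dim probes (7 at an unadjusted *p*). With either of these settings it also called 0 of all genes tested. It called 6 members lower under each of 4 other alternatives, beside 2343 to 3099 genes of the 14960 or 16662 tested. Under each of 2 more it called 8, beside 3845 and 4170 of 16662. After *miR-486-3p*, the 6 genes named above and *NCAPH2* were called lower under 10 of 10 alternatives run with limma. *NCAPH2* also had a probe called higher under 8 of these 10.

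**Figure D1:**
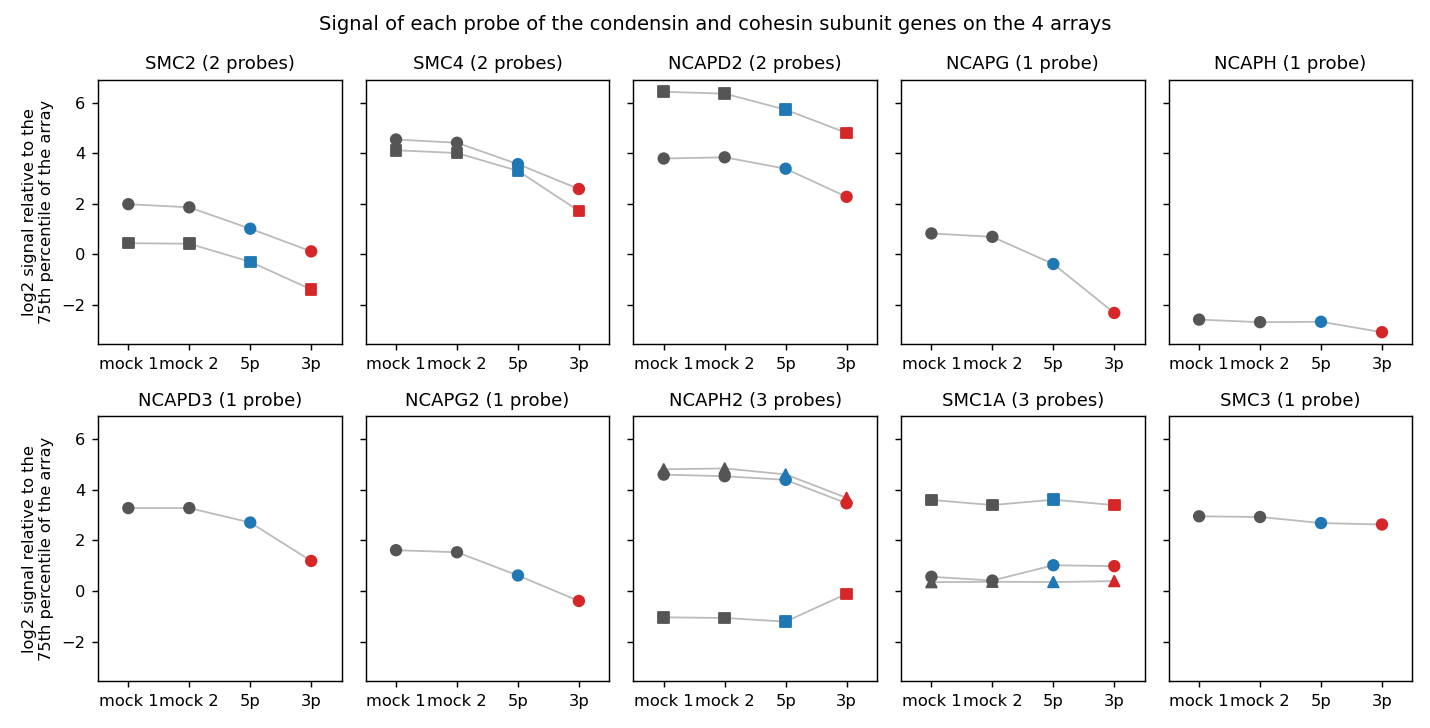
Log2 signal of each of the 17 probes, relative to the 75th percentile of its array (vertical axis), on mock array 1, mock array 2, the *miR-486-5p* array (5p) and the *miR-486-3p* array (3p), with 1 panel per gene and 1 marker shape per probe. In *SMC2*, *SMC4*, *NCAPD2*, *NCAPG*, *NCAPD3* and *NCAPG2*, every probe was lower on the 5p array than on both mock arrays and lower again on the 3p array, whereas every *SMC1A* and *SMC3* probe stayed within 0.53 of its mean in mock. Heights of different probes are not comparable.

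*SMC2* and *SMC4* encode the ATPase pair on which both condensins are built. The first *SMC2* probe had a log2 signal of 1.98 and 1.86 on the mock arrays, 1.01 on the 5p array and 0.12 on the 3p array. The second *SMC2* probe had 0.44 and 0.42 in mock, −0.29 on the 5p array and −1.39 on the 3p array. On both probes, then, the mock arrays lay together, the *miR-486-5p* array was lower and the *miR-486-3p* array lowest. The *miR-486-3p* differences of −1.80 ± 0.11 and −1.82 ± 0.088 (limma SE) passed the test (adjusted *p* = 0.00841 and 0.00762), and those of −0.91 and −0.72 after *miR-486-5p* did not (adjusted *p* = 0.0523 for each). *SMC2* is on the study's list of putative targets of both strands, which was drawn partly from these arrays, so its lower signal here is not independent evidence for that list.

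The first *SMC4* probe had log2 signals of 4.54 and 4.41 in mock, 3.57 on the 5p array and 2.58 on the 3p array. The second had 4.11 and 4.01 in mock, 3.30 on the 5p array and 1.71 on the 3p array. Both again ran in the order mock, *miR-486-5p*, *miR-486-3p*, but they differed in size after *miR-486-3p*, at −1.89 ± 0.11 and −2.34 ± 0.10 (adjusted *p* = 0.00823 and 0.00762). As the mean of both probes, 23.0% of the mock signal of *SMC4* was left on the 3p array and 56.1% on the 5p array. The *miR-486-5p* differences of −0.91 and −0.76 did not pass (adjusted *p* = 0.0523 and 0.0555).

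Of the condensin I subunits, *NCAPG*, a HEAT-repeat subunit, showed the lowest value of all members after either strand, except with a normexp background correction. Its probe had log2 signals of 0.83 and 0.69 in mock, −0.38 on the 5p array and −2.32 on the 3p array. The *miR-486-3p* array thus stood far below the other 3. *NCAPG* fell by 1.14 ± 0.11 after *miR-486-5p* (adjusted *p* = 0.0480). After *miR-486-3p* it fell by 3.07 ± 0.11 (adjusted *p* = 0.00762), which left 11.9% of the mock signal. Only 83 of the 16446 genes measured had a lower difference after *miR-486-3p*, and 503 of 16024 had one after *miR-486-5p*. With normexp, which adds an offset of 50 and thereby compresses low signals, *NCAPG* was at −1.64 on the 3p array and −0.81 on the 5p array, relative to mock, beside −2.03 and −0.82 for *SMC4*, and *NCAPD3* was at −1.83 on the 3p array.

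*NCAPD2*, the other HEAT-repeat subunit of condensin I, had 2 probes. Its first probe had log2 signals of 3.79 and 3.84 in mock, 3.39 on the 5p array and 2.27 on the 3p array. Its second had 6.43 and 6.35 in mock, 5.72 on the 5p array and 4.80 on the 3p array. The probes were nearly equal after *miR-486-3p*, at −1.54 ± 0.091 and −1.59 ± 0.096 (adjusted *p* = 0.00829 and 0.00840), whereas after *miR-486-5p* they were −0.43 and −0.67 and did not pass (adjusted *p* = 0.0845 and 0.0566).

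*NCAPH*, the kleisin of condensin I, did not follow the other subunits. Its probe was dim, with log2 signals of −2.58 and −2.68 in mock, −2.66 on the 5p array and −3.08 on the 3p array. The *miR-486-5p* array lay between the mock arrays, and the *miR-486-3p* array lay below them. Its differences were −0.03 ± 0.10 (adjusted *p* = 0.822) and −0.45 ± 0.10 (adjusted *p* = 0.0502), and the second ranged from −0.82 with median scaling to 0.06 with normexp, so its direction depended on the background correction. It was called lower after *miR-486-3p* under 6 of the 10 alternatives (adjusted *p* from 0.0139 to 0.308).

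The HEAT-repeat subunits of condensin II were lower as well. *NCAPD3* had log2 signals of 3.28 on each mock array, 2.71 on the 5p array and 1.19 on the 3p array. It fell by 2.09 ± 0.087 after *miR-486-3p* (adjusted *p* = 0.00762), and its difference after *miR-486-5p* was −0.57 (adjusted *p* = 0.0598). *NCAPG2* had log2 signals of 1.62 and 1.53 in mock, 0.62 on the 5p array and −0.39 on the 3p array. Both transfected arrays were below the mock arrays for *NCAPG2*, which fell by 0.96 ± 0.097 after *miR-486-5p* (adjusted *p* = 0.0485) and fell by 1.97 ± 0.097 after *miR-486-3p* (adjusted *p* = 0.00768).

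*NCAPH2*, the kleisin of condensin II, gave opposite directions on its 3 probes. All but the last of those described here are listed under the same transcript. The first of these had log2 signals of 4.60 and 4.54 in mock, 4.40 on the 5p array and 3.47 on the 3p array, and the other had 4.81 and 4.85 in mock, 4.61 on the 5p array and 3.69 on the 3p array. On this pair the *miR-486-3p* array stood apart, with differences of −1.10 ± 0.093 and −1.14 ± 0.089 (adjusted *p* = 0.0110 and 0.0101). The remaining probe, listed under a different *NCAPH2* transcript, had −1.04 and −1.06 in mock, −1.21 on the 5p array and −0.11 on the 3p array. There the *miR-486-3p* array was above all others, and its difference of 0.94 ± 0.088 passed the test in the other direction (adjusted *p* = 0.0124). The mean over the 3 probes, −0.44, therefore describes none of them. After *miR-486-5p* the 3 differences were −0.18, −0.22 and −0.16, and none passed.

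The SMC pair of cohesin, whose ATPases form the arms of its ring, differed less from mock. *SMC3* had log2 signals of 2.95 and 2.93 in mock, 2.69 on the 5p array and 2.63 on the 3p array. Both transfected arrays were below the mock arrays, with differences of −0.25 ± 0.088 and −0.31 ± 0.088 that did not pass the test (adjusted *p* = 0.160 and 0.0751). Under other settings, limma called *SMC3* lower after *miR-486-3p* in 6 of 10 cases (adjusted *p* from 0.00350 to 0.196) and after *miR-486-5p* in 2 (0.0163 to 0.172). In the order of the *miR-486-3p* differences, 33.8% of all genes lay below *SMC3*, against 2.59% for *SMC4*.

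*SMC1A* had 3 probes. The first had log2 signals of 0.57 and 0.42 in mock, 1.02 on the 5p array and 0.99 on the 3p array. The second had 3.60 and 3.40 in mock, 3.61 on the 5p array and 3.40 on the 3p array, and the third had 0.35 and 0.37 in mock, 0.36 on the 5p array and 0.39 on the 3p array. The first probe was thus higher on both transfected arrays, with differences of 0.53 ± 0.12 and 0.50 ± 0.12 that missed the threshold (adjusted *p* = 0.0884 and 0.0534), and it was called higher on the 5p array under 3 and on the 3p array under 4 of 10 alternatives. On the second probe, where the differences were 0.11 and −0.10, the 5p array was just above and the 3p array just below both mock arrays. On the third they were 0.00 and 0.03. As the mean of the 3 probes, *SMC1A* differed from mock by 0.21 on the 5p array and by 0.14 on the 3p array, and the latter was −0.23 with median scaling and −0.10 on the brightest probe. The missed threshold does not show that the cohesin genes were unchanged.

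**Figure D2:**
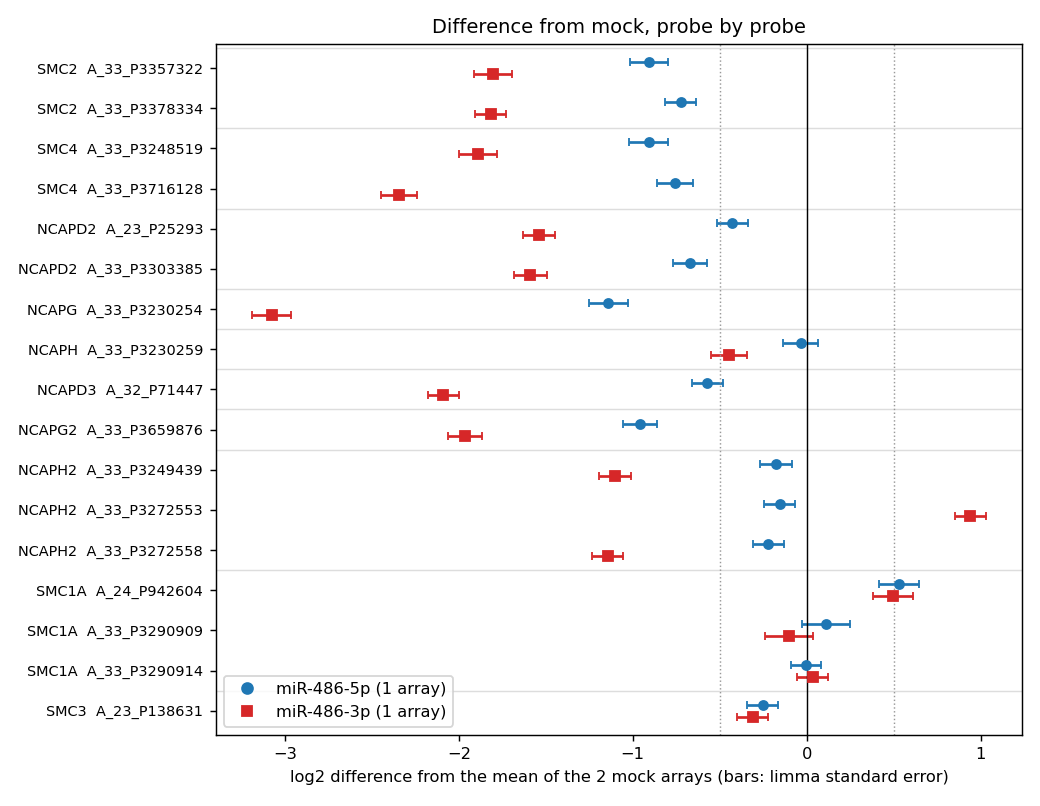
Log2 difference of each probe from the mean of the 2 mock arrays (horizontal axis) after *miR-486-5p* (circles) and *miR-486-3p* (squares), with limma standard errors as bars and dotted lines at −0.5 and 0.5. The 11 probes called lower after *miR-486-3p* all belong to condensin genes, and 1 *NCAPH2* probe lies on the other side at 0.94.

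The strands were then set against each other in the same fit, since a call after one strand and not after the other is no test of a difference. *miR-486-3p* gave lower signals than *miR-486-5p* for 7 of 10 members (*SMC2*, *SMC4*, *NCAPD2*, *NCAPD3*, *NCAPG*, *NCAPG2* and *NCAPH2*), against 27.3% of all genes tested. *NCAPG* had a gap of −1.93 ± 0.13 (adjusted *p* = 0.0125), the largest among members as processed here, but of −0.83 with normexp, where *NCAPD3* had the largest, at −1.26. It was −1.59 ± 0.12 on the second *SMC4* probe (adjusted *p* = 0.0134) and −1.52 ± 0.10 for *NCAPD3* (adjusted *p* = 0.0124). The gap was −1.01 for *NCAPG2*, −0.90 and −1.09 on the *SMC2* probes, and −1.11 and −0.92 on those of *NCAPD2*, each past the threshold. The *NCAPH2* probe of the other transcript was higher after *miR-486-3p* than after *miR-486-5p*, by 1.10 ± 0.10 (adjusted *p* = 0.0159), against 26.7% of genes with a probe called higher. *SMC3*, at −0.06 ± 0.10 (adjusted *p* = 0.677), and the *SMC1A* probes, between −0.21 and 0.04, did not pass, and neither did *NCAPH* at −0.41 ± 0.12 (adjusted *p* = 0.0834).

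Averaged over probes, the 3p array differed from mock by −3.07 for *NCAPG*, −2.12 for *SMC4*, −2.09 for *NCAPD3*, −1.97 for *NCAPG2*, −1.81 for *SMC2*, −1.56 for *NCAPD2* and −0.45 for *NCAPH*. The values of *NCAPD3* and *NCAPG2* lay between those of the 2 *SMC4* probes, so these genes are not ranked against each other, and *NCAPH2*, whose probes disagreed, is left out of this order. The median was −1.56 for the 3 condensin I genes and −1.97 for the 3 condensin II genes, the latter counting the *NCAPH2* mean. With normexp the medians were −1.59 and −1.39, which turns their order. That turn rests on counting *NCAPH2*, since with normexp *NCAPD3* was at −1.83 and *NCAPG2* at −1.39, on either side of −1.59. The 2 complexes are therefore not ranked. After *miR-486-5p*, the corresponding medians were −0.55 and −0.57. Over all 10 members the median difference from mock was −0.56 on the 5p array and −1.69 on the 3p array, beside 0.03 and 0.06 over all genes measured.

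The size of these differences depended on the scaling of the arrays. With each array scaled to its median in place of its 75th percentile, the median over all genes moved from 0.06 to −0.32 after *miR-486-3p* and from 0.03 to −0.05 after *miR-486-5p*. Of the genes past 0.5 in either direction, 47.2% were lower after *miR-486-3p* with the main scaling and 70.2% with median scaling, and after *miR-486-5p* 53.8% and 64.1%. Relative to the median over all genes, the median of the 10 members was −1.75 after *miR-486-3p* with either scaling, which is so by construction because a scaling shifts every gene of an array alike, and it ranged from −1.92 to −1.41 over all alternatives that change the values. After *miR-486-5p* it was −0.59 and ranged from −0.66 to −0.53.

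**Figure D3:**
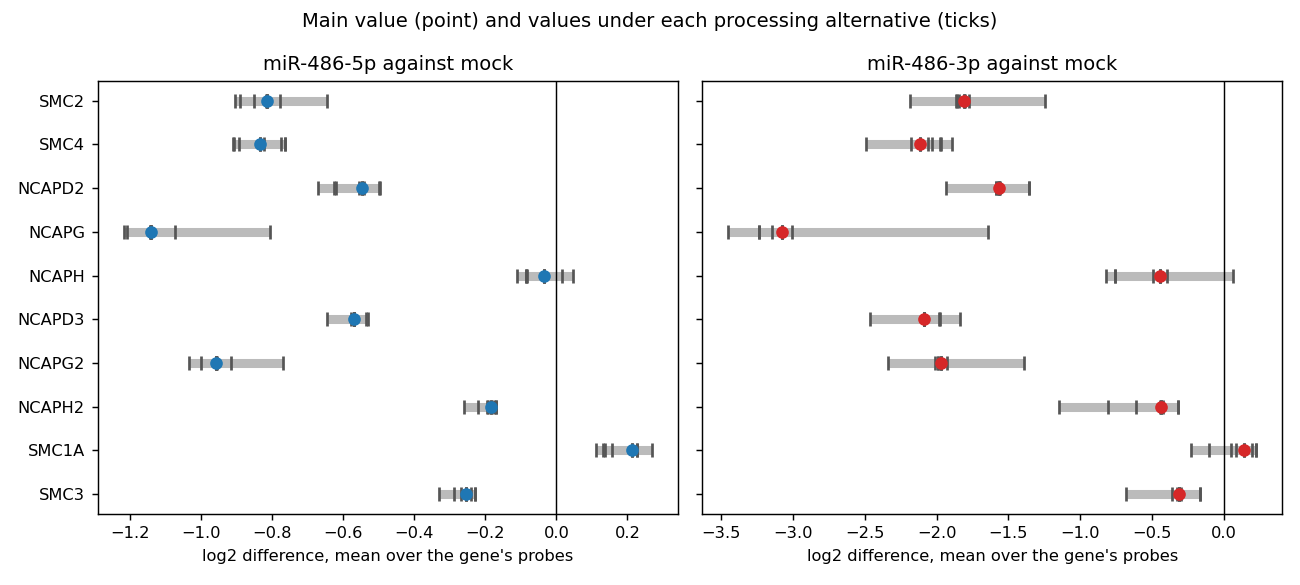
Log2 difference from mock (horizontal axis), as the mean over each gene's probes, after *miR-486-5p* (left) and *miR-486-3p* (right). Points are the main values, ticks the values under each alternative processing, and gray bars their range. After *miR-486-3p*, *NCAPG* ranged from −3.45 to −1.64 and *SMC4* from −2.49 to −1.89, while the ranges of *NCAPH* and *SMC1A* crossed 0.

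The promoters of the members were read for the letters of 3 elements that cell cycle genes are known to carry: the cell cycle homology region (CHR), searched as TTTGAA and bound by the DREAM and MuvB complexes, the CCAAT box bound by NF-Y, and the E2F sites TTTCCCGC and TTTGGCGC. Both strands were searched over 250 bases before to 50 bases after each start site, in RefSeq sequences of GRCh38.p14. The table held 35116 such windows, 13 of them for 9 of the members. *NCAPH2* had no entry in it. The CHR letters were in 7 of the 13 member windows, each of a different gene (*SMC2*, *SMC3*, *SMC4*, *NCAPD2*, *NCAPD3*, *NCAPG* and *NCAPG2*), and in 15.2% of all windows. These include *SMC3*, which was not called, and leave out *NCAPH* and *SMC1A*. The CCAAT box was in 3 of the 13 member windows (*NCAPD2*, *NCAPD3* and *NCAPH*), a smaller share than the 34.6% of all windows. The E2F letters were in 2 of the 13 (*SMC1A* and *NCAPD3*) and in 2.27% of all windows. A match of letters is a description and shows no binding.

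For 3 of the genes whose signals were lower after *miR-486-3p*, the 100 bases before the start site are shown as examples, read on the strand of the gene. Each holds such an element close to the start. So does *NCAPD3*, not shown, with the reverse complement of the CCAAT box 45 bases before the start site. The CHR letters of *SMC2* and *NCAPD3*, also not shown, began 3 bases before it and ran past it. Those of *NCAPG2* began 35 bases after the start site, so the 100 bases before it hold no whole element in *SMC2* or *NCAPG2*. Those of *NCAPD2* began 145 bases before the start site, outside the stretch shown. Capitals mark the CHR letters in *NCAPG* and, as their reverse complement, in *SMC4*, and the reverse complement of the CCAAT box in *NCAPD2*. The stretches lie on the plus strand at chr4:17810879-17810978 for *NCAPG*, chr3:160399550-160399649 for *SMC4* and chr12:6494002-6494101 for *NCAPD2* (GRCh38.p14), and that of *SMC4* also lies inside the gene span of *TRIM59-IFT80*.
*NCAPG*: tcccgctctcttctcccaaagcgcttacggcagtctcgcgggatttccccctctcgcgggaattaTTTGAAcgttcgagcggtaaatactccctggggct
*SMC4*: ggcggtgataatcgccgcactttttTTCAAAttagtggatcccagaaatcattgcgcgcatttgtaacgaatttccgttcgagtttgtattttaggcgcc
*NCAPD2*: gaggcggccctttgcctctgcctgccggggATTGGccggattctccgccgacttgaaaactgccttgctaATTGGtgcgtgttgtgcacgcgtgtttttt
The element began 35 bases before the start site in *NCAPG*, 75 bases in *SMC4*, and 70 and 30 bases in *NCAPD2*.

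Cohesin works with loaders, release factors and locks, and these had calls in both directions after *miR-486-3p*, as had all genes tested. Of 14 such partners and regulators, limma called 7 with a lower and 5 with a higher probe, *HDAC8* among both, beside 31.6% and 31.9% of all genes. Values in brackets are log2 differences. The lower ones included the genes that act on sister chromatids around mitosis: *SGO1*, which guards centromeric cohesin (−2.99 on the probe measured on every array, the other being not well above background on the 3p array), *PTTG1*, which encodes securin (−3.13), *ESPL1*, which encodes separase (−2.29), and *CDCA5*, which encodes sororin (−1.94). *PDS5B* and *PDS5A*, which bind cohesin and regulate its release, were at −1.55 and −0.65. The higher ones were *MAU2* (0.97) and *NIPBL* (0.64), which form the cohesin loader, the acetyltransferase gene *ESCO1* (0.65) and *STAG2* (0.35). With median scaling *MAU2*, *NIPBL*, *ESCO1* and *STAG2* were at 0.59, 0.26, 0.27 and −0.02. *STAG1*, *WAPL* and *CTCF* were not called. After *miR-486-5p* the same 14 genes had 2 calls lower, *SGO1* and *CDCA5* (−1.01), and 0 higher, beside 6.66% and 3.58% of all genes. The *SGO1* probe measured on every array was at −1.10 and did not pass, and the other, at −1.45, did. The list's median difference from mock was −0.19 on the 5p array and −0.25 on the 3p array.

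*NIPBL*, singled out after its values were seen, differed between the strands. It had log2 signals of 0.78 and 0.69 in mock, 0.17 on the 5p array and 1.38 on the 3p array. The *miR-486-5p* array was thus below both mock arrays and the *miR-486-3p* array above them. The latter's difference from mock was 0.64, and 0.26 with median scaling. The difference after *miR-486-5p* was −0.57 and did not pass (adjusted *p* = 0.0685), that after *miR-486-3p* did (adjusted *p* = 0.0262), and the gap between the strands of 1.21 passed as well (adjusted *p* = 0.0165).

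The third SMC complex, SMC5/6, acts in DNA repair. Of its 5 genes listed, 3 were called lower after *miR-486-3p*, *NSMCE1* (−1.44), *SMC6* (−0.82) and *NSMCE4A* (−0.71), and *NSMCE3* was called higher (1.02), beside the same shares of all genes. *SMC5* had a difference of 0.51 and was not called (adjusted *p* = 0.0609). After *miR-486-5p*, 0 of the 5 were called, with values between −0.30 and 0.41. The cohesin genes best known from meiosis were not uniform either. *REC8* was higher after *miR-486-3p*, with log2 signals of 0.22 and 0.23 in mock, 0.22 on the 5p array and 1.56 on the 3p array (adjusted *p* = 0.00880), and *STAG3* had at least 1 probe called lower at a mean of −1.14. *SMC1B* was not well above background on all arrays.

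Most genes that work with condensin on mitotic chromosomes were lower. Of 8 measured, 7 passed as lower with *miR-486-3p* and 4 with *miR-486-5p*, beside 31.6% and 6.66% of all genes, and the median log2 differences were −2.72 and −0.85. *TOP2A*, the topoisomerase that untangles chromosomes in mitosis, differed from mock by −1.14 on the 5p array and by −2.88 on the 3p array, both called. Its relative *TOP2B*, which is also expressed in non-dividing cells, was at 0.10 and 0.12 and was not called (−0.26 after *miR-486-3p* with median scaling). *KIF4A*, a chromokinesin, was at −0.70 and −2.18. *AURKB*, the kinase of the chromosomal passenger complex, was at −0.67 and −4.21, and *CCNB1*, whose product drives entry into mitosis with the kinase CDK1, was at −1.01 and −3.27. Of the *CDK1* probes, the one well above background on every array was at −0.83 after *miR-486-5p*, which did not pass (adjusted *p* = 0.0523), and at −3.17 after *miR-486-3p*, which did. The other was not well above background on either transfected array and was called lower on both. From probes well above background on all 4 arrays alone, the medians of the list were −2.95 and −0.77. *MKI67*, which encodes the coat protein of mitotic chromosomes, was at −0.99 and −3.02, and *SMCHD1*, a noncanonical SMC gene, at −0.53 and −0.68.

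Genes of the cell cycle at large moved with the condensin genes. Of 33 S phase genes, 22 passed as lower and 1 as higher after *miR-486-5p*, beside 6.66% and 3.58% of all genes. After *miR-486-3p*, 32 passed as lower, beside 31.6% of all genes. The list's medians were −1.01 on the 5p array and −1.98 on the 3p array. Of 42 G2/M genes, 24 were called lower on the 5p array and 42 on the 3p array, beside the same shares of all genes. Their medians were −0.89 and −2.54. The medians over the condensin groups, between −1.56 and −1.97 after *miR-486-3p*, were thus smaller in size than that of the G2/M list. By flow cytometry, the paper reports arrest in G0/G1 of LUAD cells transfected with either strand. The part of the cell cycle distribution in the values of the condensin genes was not tested.

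**Figure D4:**
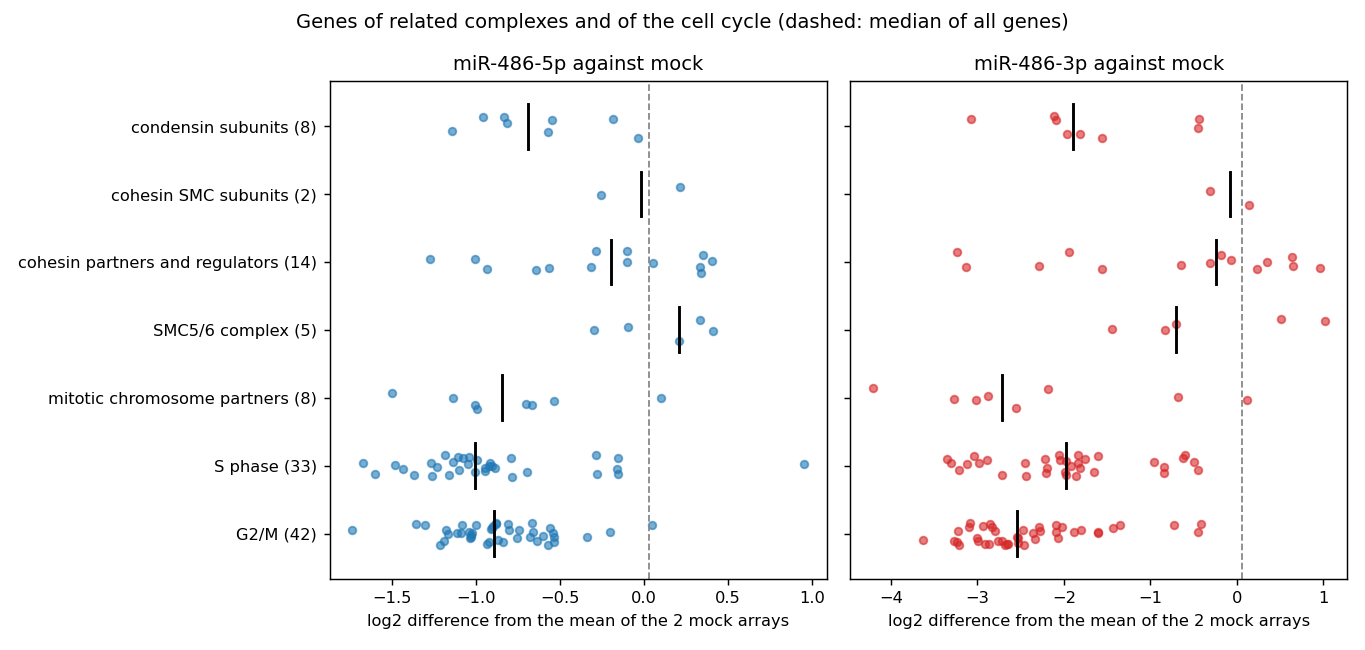
Log2 difference from mock of each gene (points, horizontal axis) after *miR-486-5p* (left) and *miR-486-3p* (right) for the condensin and cohesin subunits and 5 related lists, with the number of genes in brackets, list medians as black bars and the median over all genes as a dashed line. A probe not well above background was set to the lowest measured signal of its array, so the sizes of *SGO1* (3p) and *CDK1* are lower bounds. The G2/M median is at −2.54 and the cohesin SMC pair at −0.31 and 0.14 after *miR-486-3p*.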

How the data were processed

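The authors deposited, for each of the 4 arrays, Agilent Feature Extraction 12.1.1.1 output, in which the intensity of a spot is linear and was background-corrected by the software, and a table of log2 values with the same quartiles on the 4 arrays. How the latter were normalized is not given in the sources used here. From the intensity, log2 was taken and the 75th percentile of each array subtracted. Control and outlier spots were left out and spots of a probe averaged. Probes were named through RefSeq accessions (31104 of 33080 matched). For the log2 differences from mock, a probe was used if well above background on that transfected array or on both mock arrays. The fit took probes well above background on either transfected array or on both mock arrays, with dim signals left as measured. limma 3.58.1 (R 4.3.3) was fitted to 33498 probes in 3 groups. Its 1 residual degree of freedom lies between the mock arrays (prior 1.75 degrees of freedom, SD 0.0893), and the spread of a transfected array is taken from them. All arrays shared 1 slide and 1 scan. The number of arrays limits the precision. The members, lists and tests were chosen with earlier results of these data known. Every member was named, and genes of the other lists by role. One marker gene is not reported here.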

Additional observations from a re-analysis of the deposited data

How the results depend on the processing

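The number of members called lower after *miR-486-5p* was 2, and it became 6 with median scaling, with probes well above background on all 4 arrays, with the brightest probe of each gene and with probes averaged before the fit, 8 with normexp and with an intensity trend in limma, and 0 with the authors' log2 values and without a filter on dim probes. Over all genes the counts called lower and higher moved alike, from 1109 and 596 to between 0 and 4170 lower. The methods' t-test after Benjamini-Hochberg adjustment called 0 members after either strand (3 and 8 unadjusted). With a limit of −1, *miR-486-5p* gave 1 lower member, beside 739 of 16024 genes, and *miR-486-3p* 6, beside 2311 of 16446. After *miR-486-3p* the number called lower was 7, and 7 to 9 under every other alternative with limma, and the number below the limit was 6 to 9. Leaving out either mock array gave 6 below the limit after each strand. The causes were not tested. limma could not be run without a mock array, since no residual degree of freedom would remain, and a t-test between the strands could not be run with 1 array each. The normexp correction used median spot signals. No paired analysis was possible because neither strand has a second array to pair.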
